A study of Rattus norvegicus with 20 samples.

Results

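The 8 genes described here, Pmp22, Prx, Pmp2, Egr2, Cdh19, Ncmap, Scn7a and Dhh, are made by Schwann cells, the glia of peripheral nerve. They were taken by symbol from a table of 30443 genes, and each symbol occurred 1 time. RNA was sequenced from 5 tissue blocks of each of 4 adult female wild-type Long-Evans rats aged about 6 to 8 months, which gave 20 libraries. All 4 rats received a hemicontusion with a displacement of 0.7 mm at cervical level 4 and, 2 weeks later, an electrode array in the motor cortex opposite to the injured side. Beginning 1 week after implantation, the 2 stimulated rats were stimulated through the array for 1 week, for 5 hours a day at 10 Hz in cycles of 5 minutes on and 2 minutes off at 80% of the current that evoked movement. The 2 control rats carried the same injury and implant and were connected to a sham stimulator but not stimulated, so no block came from an uninjured or unimplanted rat. Region 1 was a block of about 5 mm3 of subcortical white matter under the electrodes, and region 2 was the matching block of the other hemisphere. Regions 3, 4 and 5 were cervical cord rostral to the injury, at its centre and caudal to it. The cord blocks held gray and white matter together. With 2 rats in a group, every comparison of groups rests on 2 against 2 libraries.

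Schwann cells wrap peripheral axons in myelin, a task that belongs to oligodendrocytes inside the brain and cord. The border lies where the nerve roots join the cord, and after injury Schwann cells are known to enter the damaged cord and to myelinate axons there. Pmp22 encodes a membrane protein of compact peripheral myelin, Pmp2 a fatty acid binding protein of the same sheath and Ncmap a protein of its non-compact parts. Prx encodes periaxin, a scaffold that ties the Schwann cell to its basal lamina. Egr2 is the transcription factor that switches on the myelin program, and it is also induced by activity in neurons. Cdh19 encodes a cadherin of the Schwann lineage. Scn7a encodes a sodium-sensing channel found in non-myelinating Schwann cells and in some glia of the brain. Dhh encodes desert hedgehog, the ligand by which Schwann cells instruct the cells of the nerve sheath.

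Promoter windows, from 250 bases before to 50 bases after the gene start, were taken by symbol from RefSeq on the assembly GRCr8, a later build than the one the reads were aligned to. The table held a window for 7 of the 8 genes, all but Pmp2. The windows of Prx and Ncmap are shown because these genes were among the closest to each other in level over the 20 libraries, and that of Egr2 because its levels ran the other way. In Prx and Ncmap the capitals mark a match, read on the opposite strand, to GNGTGGGNG, a loose form of the site that EGR factors recognise. In Egr2 they mark a CArG box, the kind of site bound by serum response factor, which was looked for after the sequence had been read. Prx lies at chr1:91914171-91914470, plus strand, Ncmap at chr5:152902365-152902664, minus strand and Egr2 at chr20:21054392-21054691, minus strand.
Prx: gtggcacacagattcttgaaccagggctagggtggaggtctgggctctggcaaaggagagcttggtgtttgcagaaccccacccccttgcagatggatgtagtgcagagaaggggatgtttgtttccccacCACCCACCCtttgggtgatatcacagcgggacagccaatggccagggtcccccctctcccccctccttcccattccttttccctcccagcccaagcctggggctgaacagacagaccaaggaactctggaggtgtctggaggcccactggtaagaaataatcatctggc
Ncmap: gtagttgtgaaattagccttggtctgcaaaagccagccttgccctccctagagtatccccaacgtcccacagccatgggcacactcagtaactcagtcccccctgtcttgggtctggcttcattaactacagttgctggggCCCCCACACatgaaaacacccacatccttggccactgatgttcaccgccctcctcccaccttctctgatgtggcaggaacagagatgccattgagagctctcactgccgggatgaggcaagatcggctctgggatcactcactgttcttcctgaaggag
Egr2: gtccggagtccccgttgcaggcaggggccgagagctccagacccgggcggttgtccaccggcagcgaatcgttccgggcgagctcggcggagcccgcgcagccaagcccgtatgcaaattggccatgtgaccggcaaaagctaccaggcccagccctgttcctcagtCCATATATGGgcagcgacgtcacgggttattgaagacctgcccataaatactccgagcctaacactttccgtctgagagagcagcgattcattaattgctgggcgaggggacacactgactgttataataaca
Both strands of every window were searched. GNGTGGGNG was present in the windows of Prx, Ncmap, Scn7a and Dhh, with 2 matches in Scn7a, and in 12.9% of the 33469 promoters of the table. A CArG box, which reads alike on both strands, was present in 1.64% of promoters and, of the 7 windows, in that of Egr2. ACAANG, a short form of the SOX site, was present in the Scn7a window and in 42.1% of promoters. A match gives letters in a window and no measurement of binding.

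Levels were read as FPKM, fragments scaled by transcript length and by the mapped reads of the library, in which the lowest value in the table is 0.1. The labels of the genes were first set against the 2 tissues, since central white matter holds few Schwann cells. In the 12 cord libraries Prx ran from 0.881 to 12.9 FPKM with a median of 4.24, and in the 8 white matter libraries from 0.136 to 0.344 with a median of 0.263. Pmp2 ran from 2.35 to 11.7 FPKM in the cord with a median of 7.32, and from 0.1 to 0.925 in white matter with a median of 0.365. The ranges of both genes were separate in the 2 tissues. Ncmap was listed at 0.1 in every white matter library and ran from 0.524 to 9.20 FPKM in the cord, so no fold is given for it. Pmp22 was measurable throughout, with a range of 6.22 to 22.2 FPKM in white matter and 38.8 to 142 in the cord. Cdh19 ranged from 0.589 to 1.67 FPKM in white matter and from 2.85 to 6.51 in the cord.

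Dhh and Scn7a separated the tissues less well, and Egr2 went the other way. Dhh ranged from 0.169 to 0.347 FPKM in white matter and from 0.237 to 1.55 in the cord, and its ranges overlapped. Scn7a ranged from 0.1 to 7.30 FPKM in white matter and from 1.67 to 7.88 in the cord. Egr2 ran from 0.637 to 4.07 FPKM in white matter, above every cord library (0.132 to 0.620). Its levels across the tissues went against the Schwann cell label that the other genes share. A higher level in the cord was not particular to Schwann cell genes, however. The 10 oligodendrocyte and central myelin markers summed to 7854 to 11376 FPKM in the cord and to 764 to 3180 FPKM in white matter. In limma fitted to all 20 libraries, 7 of the 8 genes were higher in the cord and Egr2 was lower, where 47.1% of the 15210 genes tested were higher and 25% lower. A gene needed 1 FPKM in any library to be tested. Prx, Pmp2, Ncmap and Dhh reached it only in cord libraries and Egr2 only in white matter. The filter thus favoured these directions for them. On the log2 scale the differences with SE were 2.59 (0.16) for Pmp22, 4.13 (0.24) for Prx, 4.39 (0.22) for Pmp2 and 2.21 (0.11) for Cdh19. They were 2.30 (0.48) for Scn7a, 1.70 (0.21) for Dhh and -2.39 (0.27) for Egr2, and the adjusted p-values of the 8 genes ran from 8.12e-13 to 2.73e-04. The lowest was that of Ncmap, whose white matter libraries at the floor have no spread, so its error is understated. In bulk tissue, more cells of a type and more RNA in each cell cannot be told apart. The white matter blocks also held neuronal RNA: 6 neuron markers summed to 892 to 1593 FPKM there and to 440 to 913 FPKM in the cord.

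**Figure D1:**
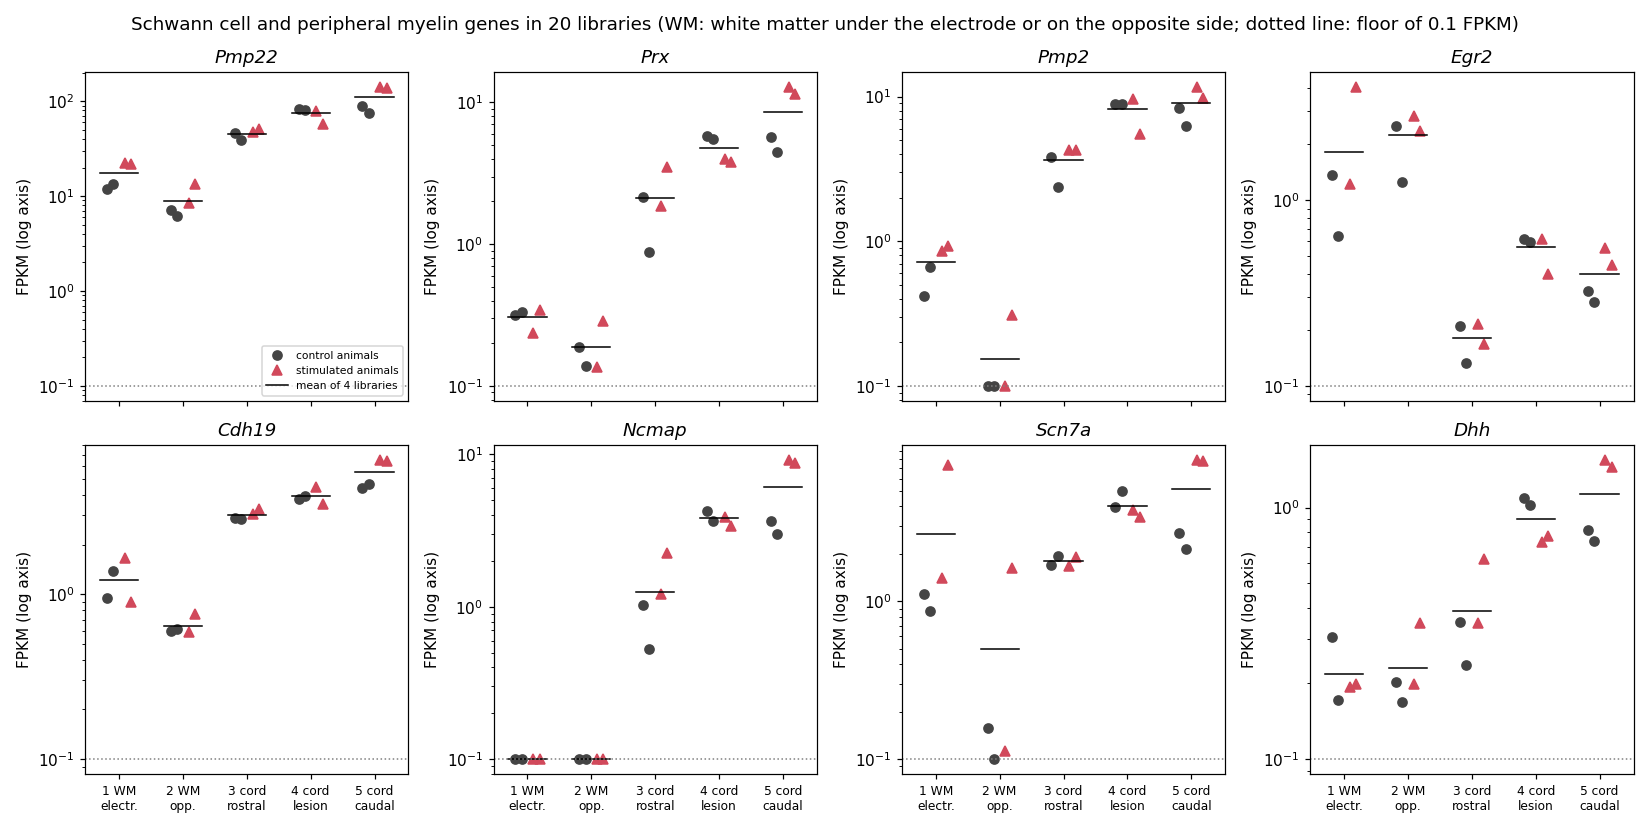
FPKM of the 8 genes on a log axis in each of the 20 libraries by region, with circles for control rats, triangles for stimulated rats, a bar at the mean of the 4 libraries and a dotted line at the floor of 0.1. For all genes but Egr2 the mean rises from rostral cord over the lesion to caudal cord, whereas the 8 white matter libraries of Egr2 all lie above its cord libraries.

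Some of the genes also differed between the 2 hemispheres. In white matter under the electrodes Pmp22 was at 12.0 and 13.3 FPKM in the control rats and 22.2 and 21.9 in the stimulated rats, against 7.10, 6.22, 8.44 and 13.4 on the opposite side in the same order. Pmp2 was at 0.419, 0.667, 0.860 and 0.925 FPKM under the electrodes and at 0.1, 0.1, 0.1 and 0.311 on the opposite side. Every rat had more Pmp22 and more Pmp2 under the electrodes than on the opposite side. Cdh19 was at 0.949, 1.37, 1.67 and 0.897 FPKM under the electrodes and at 0.595, 0.614, 0.589 and 0.754 on the opposite side. Scn7a was at 1.11, 0.869, 1.41 and 7.30 FPKM under the electrodes and at 0.157, 0.1, 0.112 and 1.64 on the opposite side. The high values of Scn7a on both sides came from stimulated rat 2. These 4 genes were called higher under the electrodes by limma, where 6.86% of genes were. The log2 difference was 0.99 (SE 0.25, adjusted p 0.0218) for Pmp22, and 0.90 (SE 0.18, adjusted p 0.00676) for Cdh19. It was 2.94 (SE 0.74, adjusted p 0.0207) for Scn7a, and 2.37 (SE 0.34, adjusted p 0.00114) for Pmp2, whose opposite side was at the floor in 3 of 4 rats. Prx, Egr2, Ncmap and Dhh were not called, with log2 differences of 0.77, -0.57, 0.00 and -0.06. Without control rat 1, or without control rat 2, Pmp2 alone of the 8 was called, and without stimulated rat 1 none of the 8 was. Over all genes, leaving out 1 rat gave 26 to 3674 calls, beside 1310 with all rats.

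Other lists moved on the same side. Of 10 other myelinating Schwann cell genes tested, 7 were higher under the electrodes and none lower. Of 10 oligodendrocyte and central myelin markers, 7 were higher as well, with Mbp, a main protein of central myelin, at a log2 difference of 0.79 (SE 0.21, adjusted p 0.0259). Of 10 fibroblast and nerve sheath markers tested, 4 were higher, and the 14 listed summed to 58.9 to 210 FPKM under the electrodes and to 34.9 to 77.8 on the opposite side. In stimulated rat 2 that sum was the highest of region 1, and its macrophage and microglia markers reached 227 FPKM in region 1 and 226 in region 2, against 91.1 to 145 and 37.0 to 43.1 in the other rats. The part of these cells in the levels of Scn7a and Pmp22 was not tested.

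Within the cord, the comparison of the lesion with the cord above it asked where along the injured cord these genes were expressed. The structural genes of the myelin sheath were lowest rostral to the injury. Ncmap was at 1.03, 0.524, 1.22 and 2.24 FPKM in the rostral block of control rats 1 and 2 and stimulated rats 1 and 2. In the lesion it was at 4.23, 3.68, 3.90 and 3.39 FPKM, and in the caudal block at 3.67, 3.01, 9.20 and 8.73. All 4 lesion libraries and all 4 caudal libraries lay above the highest rostral library. Prx was at 2.15, 0.881, 1.86 and 3.53 FPKM in the rostral block, 5.76, 5.49, 3.98 and 3.80 in the lesion and 5.69, 4.49, 12.9 and 11.4 in the caudal block. Its lesion and caudal libraries lay above the rostral ones too, with stimulated rat 2 the highest of the rostral block for both genes. Pmp2 was at 3.80, 2.35, 4.25 and 4.27 FPKM in the rostral block, 8.85, 8.85, 9.65 and 5.54 in the lesion and 8.35, 6.29, 11.7 and 9.84 in the caudal block. Pmp22 was at 45.8, 38.8, 47.0 and 50.8 FPKM in the rostral block, 82.5, 80.1, 79.2 and 58.0 in the lesion and 88.8, 75.7, 142 and 138 in the caudal block. Neither gene's rostral libraries overlapped those of the other blocks, and stimulated rat 2 was the lowest of the lesion block for both.

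The regulator, the adhesion molecule, the channel and the ligand of the set followed the same order in the main. Egr2 was at 0.210, 0.132, 0.215 and 0.167 FPKM in the rostral block, 0.618, 0.596, 0.620 and 0.402 in the lesion and 0.324, 0.282, 0.550 and 0.446 in the caudal block. Its mean was highest in the lesion, but all 12 cord values were below 1 FPKM. Dhh was at 0.350, 0.237, 0.346 and 0.624 FPKM in the rostral block, 1.09, 1.02, 0.731 and 0.769 in the lesion and 0.814, 0.737, 1.55 and 1.45 in the caudal block. Scn7a was at 1.69, 1.93, 1.67 and 1.91 FPKM in the rostral block, 3.96, 5.03, 3.78 and 3.42 in the lesion and 2.71, 2.16, 7.88 and 7.81 in the caudal block. The rostral libraries of both genes lay below all others of the cord. Cdh19 was at 2.90, 2.85, 3.08 and 3.29 FPKM in the rostral block, 3.80, 3.93, 4.48 and 3.53 in the lesion and 4.39, 4.64, 6.51 and 6.43 in the caudal block.

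Of the 8 genes, 5 were higher in the lesion than in the rostral block by limma, where 6.78% of all genes were higher. Dhh, 1 of the 5, reached the 1 FPKM needed for testing in no rostral library, so the filter favoured this direction for it. Ncmap rose 3.43-fold (log2 1.78, SE 0.36, adjusted p 0.00261) and Egr2 rose 3.10-fold (log2 1.63, SE 0.41, adjusted p 0.0103). Prx rose 2.49-fold (log2 1.32, SE 0.38, adjusted p 0.0209), Dhh rose 2.43-fold (log2 1.28, SE 0.33, adjusted p 0.0119) and Pmp2 rose 2.25-fold (log2 1.17, SE 0.34, adjusted p 0.0232). Pmp22 differed by 0.71 (SE 0.25, adjusted p 0.0532), Cdh19 by 0.37 (SE 0.18, adjusted p 0.141) and Scn7a by 1.16 (SE 0.74, adjusted p 0.280) on the log2 scale, and none of the 3 passed. The median log2 difference of the 8 genes was 1.23, beside -0.02 over all genes tested. With the animal as a replicate block in limma, since the blocks came from the same rats, Pmp22 passed as well (adjusted p 0.0214). Leaving out control rat 1, control rat 2 or stimulated rat 1 left 1 gene called each time, Ncmap. The model shares its spread over all regions, and the white matter libraries of Ncmap, all at the floor, add none. The SE of Ncmap may therefore be too small, although it was also called with the cord libraries only. Without stimulated rat 2, 7 were called, all but Cdh19. In the 2 control rats alone 7 of the 8 genes were called, all but Cdh19. The calls over all genes moved as well, to between 523 and 4909 with 1 rat left out, beside 2984 with all rats.

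In all, 6 genes were higher in the caudal than in the rostral block, where 2.77% of all genes were higher. They were Ncmap (4.95-fold, log2 2.31, SE 0.36, adjusted p 0.00173), Prx (4.17-fold, log2 2.06, SE 0.38, adjusted p 0.00546) and Dhh (2.94-fold, log2 1.56, SE 0.33, adjusted p 0.0132). Pmp2 (2.47-fold, log2 1.30, SE 0.34, adjusted p 0.0370), Pmp22 (2.36-fold, log2 1.24, SE 0.25, adjusted p 0.0108) and Cdh19 (1.79-fold, log2 0.84, SE 0.18, adjusted p 0.0130) passed too. Egr2 and Scn7a had log2 differences of 1.12 and 1.28 with adjusted p-values of 0.115 and 0.283. Dhh, 1 of the 6, reached 1 FPKM in caudal libraries but in no rostral library, so the filter favoured this direction for it. Only 12 of the 15210 genes tested had a larger log2 difference than Ncmap and 22 a larger one than Prx. These calls depended on which libraries were used. Without the caudal libraries of the stimulated rats, or in the control rats alone, 0 of the 8 genes passed in limma. Few or no genes of the whole table passed there either, so the loss was not particular to the 8. In the control rats alone the log2 differences still ran from 0.42 for Scn7a to 2.17 for Ncmap, with adjusted p-values of 0.0781 to 0.466. Without control rat 1, 2 of the 8 genes were called, without control rat 2, 3 genes, and without stimulated rat 1, 0 genes. Over all genes, leaving out 1 rat gave 54 to 1237 calls, beside 657 with all rats.

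Averaged over control and stimulated rats, the lesion and the caudal block were not told apart. None of the 8 genes passed in limma, where 7.99% of all genes did, and 2 genes, Pmp22 and Cdh19, had an unadjusted p under 0.05, against 29% of all genes. The log2 differences of lesion minus caudal ran from -0.74 for Prx to 0.51 for Egr2, with 95% intervals of -1.53 to 0.05 and -0.35 to 1.37. The interval for Scn7a, from -1.67 to 1.42, was the widest. For all but Pmp22 and Cdh19 the interval included 0, so neither order of the 2 blocks was settled. For Prx, Pmp2, Ncmap, Scn7a and Dhh this average pools opposite orders of the 2 blocks in control and stimulated rats, given below.

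**Figure D2:**
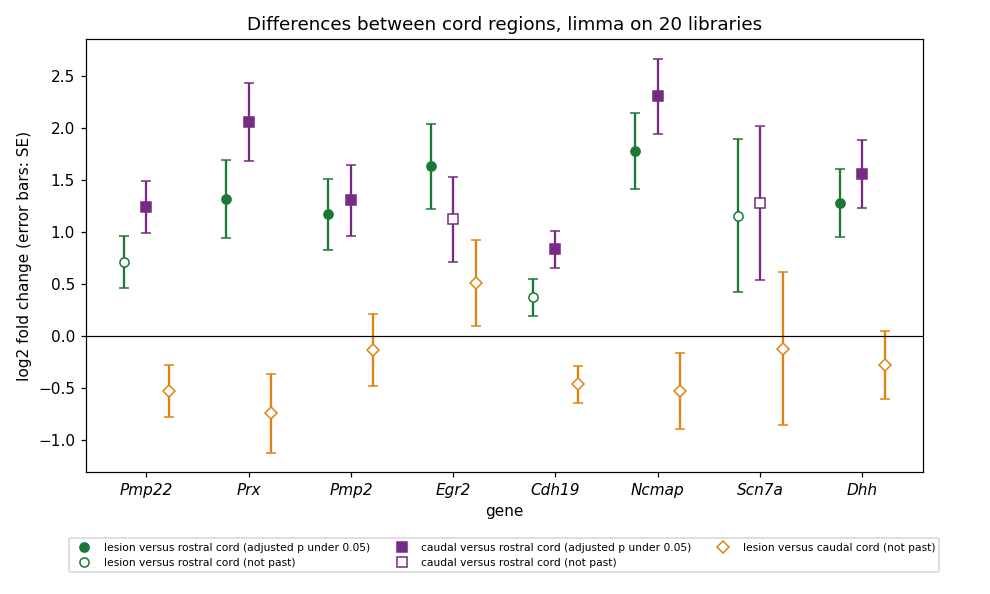
Log2 fold change of the 8 genes between cord blocks with its SE, from limma on 20 libraries, with filled marks where the adjusted p was under 0.05. Lesion and caudal cord both stand above rostral cord for every gene. The lesion minus caudal differences, averaged over control and stimulated rats, lie from -0.74 to 0.51 and none is filled.

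Further genes of the Schwann cell were counted from lists in the same fits. Of 11 other myelinating Schwann cell genes, 10 passed the filter of 1 FPKM in any library. In the lesion 4 of these were higher than in the rostral block and none lower, with a median log2 difference of 0.41. In the caudal block 5 were higher and none lower, with a median of 0.95. Sbspon, the lowest of the list, differed by -0.07 in the lesion (SE 0.28, adjusted p 0.889). Gjb1 and Pllp of this list are also made by oligodendrocytes.

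Genes of immature, non-myelinating and repair Schwann cells gave no common direction in the lesion. Of 13 listed, 12 were in the table and 6 passed the filter, of which 1 was higher in the lesion than in the rostral block and 1 lower. Matn2, a matrix protein, rose 2.24-fold (log2 1.17, SE 0.16, adjusted p 1.72e-04) from 3.96 ± 0.642 to 8.97 ± 1.85 FPKM (SD, n = 4). L1cam, an adhesion molecule that neurons also make, was lower (log2 -0.55, SE 0.10, adjusted p 0.00101). Gdnf and Artn, growth factors known from repair Schwann cells and named after their values were seen, were at or near the floor in the lesion, at 0.1 FPKM in all 4 libraries for Gdnf and at 0.1 to 0.229 for Artn. Ncam1, the most abundant of the list, differed by 0.04 (SE 0.10, adjusted p 0.802). Caudal against rostral cord, limma called Ngfr (log2 1.29, SE 0.31, adjusted p 0.0264), Matn2 (log2 0.85, SE 0.16, adjusted p 0.00578) and Shh (log2 0.64, SE 0.17, adjusted p 0.0360) higher. They are named because they were the genes of this list called there.

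Of 11 Schwann lineage regulators, 10 were in the table, 9 passed the filter and 3 were higher in the lesion, with a median log2 difference of 0.17. Tead1, a partner of the Hippo pathway, rose by 0.72 (SE 0.13, adjusted p 0.00126) and Zeb2, a repressor needed for Schwann cell maturation, by 0.36 (SE 0.09, adjusted p 0.0102). Pou3f2 differed by -0.16 (SE 0.16, adjusted p 0.507). Sox10, which oligodendrocytes share with Schwann cells and which was named after its values were seen, was at 18.6 ± 2.19 FPKM in the rostral block and 19.9 ± 2.18 in the lesion (SD, n = 4). Of 10 hedgehog pathway genes, which act downstream of Dhh, 8 passed the filter and 1 was higher in the lesion, the co-receptor Cdon (log2 0.40, SE 0.11, adjusted p 0.0196). Ptch1, the hedgehog receptor and itself a target of the pathway, was at 12.4 ± 0.811 FPKM in the rostral block and 10.3 ± 1.13 in the lesion (SD, n = 4, log2 -0.28, SE 0.12, adjusted p 0.0968). Gli1, another target, was at 0.938 ± 0.0915 and 0.657 ± 0.0785 FPKM (log2 -0.52, SE 0.33, adjusted p 0.278). Dhh itself had passed the filter only through the lesion blocks of the control rats and the caudal blocks of the stimulated rats, where it was high, and no rostral library reached 1 FPKM.

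The other cell types in the cord blocks were followed with marker lists. In the lesion 4 of 6 macrophage and microglia markers were higher than in the rostral block, led by Cd68 (log2 3.58, SE 0.76, adjusted p 0.00346), and 6 of 6 neuron markers were lower. Of the 15210 genes tested, 1031 were higher and 1953 lower. Cd68 was at 45.2, 32.6, 31.9 and 13.1 FPKM in the lesion. Stimulated rat 2, the lowest, was also the lowest of the lesion block for 7 of the 8 genes, all but Dhh. The share of all genes lowest in that library was not taken. Its summed astrocyte (2201 FPKM), oligodendrocyte progenitor (50.7), fibroblast (53.1) and meningeal (1011) markers were also the lowest of the block. Its sums of oligodendrocyte and neuron markers were not. None of 10 oligodendrocyte markers was called between the lesion and the rostral block (limma, 0 also at an unadjusted p under 0.05), and their sum ran from 7854 to 9555 FPKM in the rostral block and from 8189 to 9320 in the lesion. Of 10 fibroblast and nerve sheath markers tested, 1 was higher and 1 lower in the lesion, and the sum of the list ran from 42.9 to 55.6 FPKM in the rostral block and from 53.1 to 90.1 in the lesion. Sensory ganglion neurons, whose cell bodies lie outside the cord on the dorsal roots, were followed with 9 markers. Scn10a, Scn11a, Mrgprd and Prdm12 of these were at 0.1 FPKM in all 4 lesion libraries and all 4 rostral libraries, and the sum of the list ran from 2.21 to 3.08 FPKM in the lesion and from 3.29 to 6.94 in the rostral block. Markers of the ganglia were thus no higher in the lesion. Whether nerve root in the blocks or Schwann cells inside the cord carried these transcripts was not tested. Skeletal muscle markers were highest in the rostral block of the stimulated rats, at 11.2 and 22.2 FPKM in sum. In control rats 1 and 2 the sums were 4.70 and 5.66 FPKM in the rostral block and 2.86 and 6.77 in the lesion.

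The comparison of stimulated with control rats asked whether cortical stimulation changed these genes in each block. In the caudal cord all 8 genes had both stimulated libraries above both control libraries, where 18.5% of all genes did. Dhh reached 1 FPKM only in these stimulated libraries and in the lesion libraries of the control rats. Scn7a was at 2.71 and 2.16 FPKM in the control rats and 7.88 and 7.81 in the stimulated rats. Ncmap was at 3.67 and 3.01 against 9.20 and 8.73 FPKM, and Prx at 5.69 and 4.49 against 12.9 and 11.4. The gap between the groups was wider than the spread within either group for each of the 3. The means of stimulated over control were 3.22-fold for Scn7a, 2.69-fold for Ncmap, 2.38-fold for Prx, 1.93-fold for Dhh, 1.70-fold for Pmp22, 1.65-fold for Egr2, 1.47-fold for Pmp2 and 1.43-fold for Cdh19.

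None of these differences passed the adjustment over all genes. In limma on the 4 caudal libraries 0 of the 8 genes were called, and 3 of 15210 genes were called in all, or 0.0197%. The log2 differences with SE were 1.70 (0.17, adjusted p 0.353) for Scn7a, 1.43 (0.15, adjusted p 0.399) for Ncmap, 1.26 (0.17, adjusted p 0.536) for Prx and 0.95 (0.14, adjusted p 0.620) for Dhh. Those of Pmp22, Egr2, Pmp2 and Cdh19 were 0.77, 0.71, 0.57 and 0.52, with adjusted p-values from 0.707 to 1. All 8 genes had an unadjusted p under 0.05, against 3.59% of all genes. The median log2 difference of the 8 genes was 0.86, beside 0.05 over all genes. Of 10 other myelinating Schwann cell genes 7 lay higher in both stimulated rats, with a median log2 difference of 0.64, and 0 were called by limma (5 at an unadjusted p under 0.05).

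Markers of tissue outside the cord moved with the same 2 libraries. Genes in the next sentences were named after their values were seen. Scn10a and Scn11a, sodium channels of pain-sensing ganglion neurons, were at 0.1 FPKM in the other 18 libraries and at 1.32 and 2.39, and at 1.41 and 2.92, in the caudal blocks of stimulated rats 1 and 2. Mrgprd and Prdm12, also at 0.1 in the other 18, were at 0.483 and 0.632 and at 0.334 and 0.286 in these. Avil, an actin regulator of sensory neurons, was at 0.372 and 0.236 FPKM in the caudal control blocks and at 4.03 and 7.92 in the stimulated ones. Of 7 sensory ganglion markers tested, 6 lay higher in both stimulated rats. Scn10a and Scn11a passed the filter of 1 FPKM only through these same 2 libraries, so that outcome was fixed in advance for them. The sum of the 9 listed was 15.0 and 24.3 FPKM against 3.03 and 3.61. The 4 markers at the floor elsewhere were thus detected in the same 2 libraries in which the summed level of the 8 Schwann cell genes was highest. Most of that sum was Pmp22 (142 and 138 FPKM). Fibroblast and nerve sheath markers summed to 111 and 185 FPKM against 64.3 and 68.5, and meningeal barrier cell markers to between 2120 and 2433 against 1583 to 1790. Tyrp1, a pigment cell gene, was at 2.90 and 2.74 FPKM against 0.1 and 0.1, and was 1 of the 3 genes called. Oligodendrocyte and central myelin markers overlapped between the groups, at 9005 to 11376 FPKM in the stimulated and 9465 to 11253 in the control rats. The part of ganglion, root or meninges in the caudal difference was not tested.

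**Figure D3:**
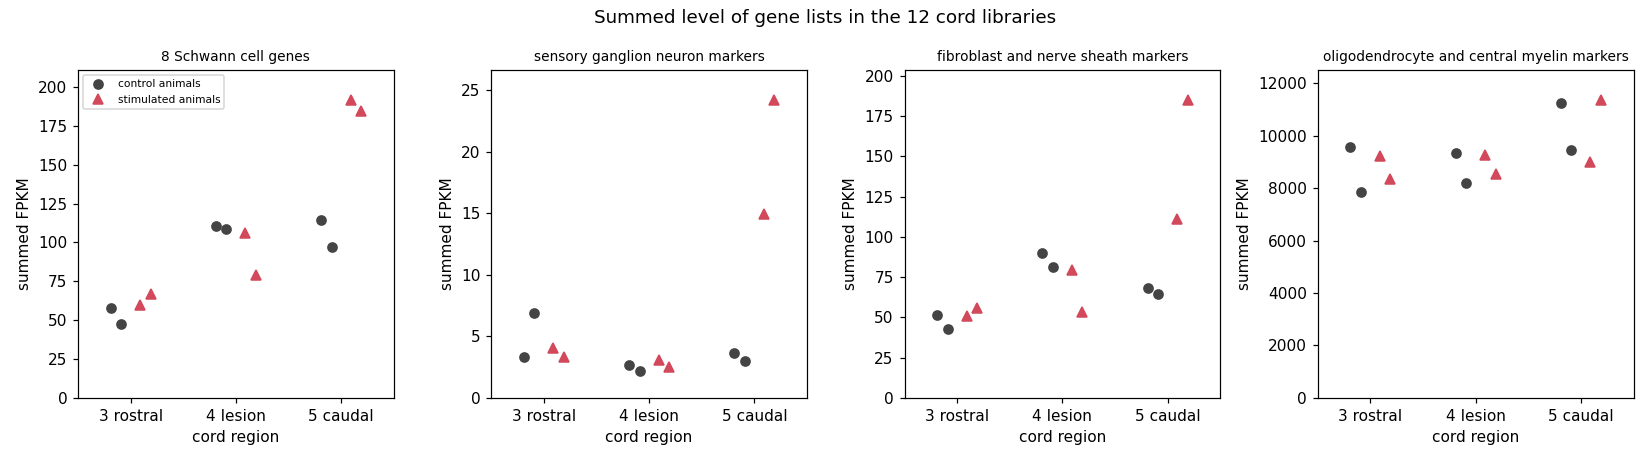
Summed FPKM of the 8 Schwann cell genes, 9 sensory ganglion neuron markers, 14 fibroblast and nerve sheath markers and 10 oligodendrocyte and central myelin markers in the 12 cord libraries, by region, from 0 on a linear axis, with circles for control and triangles for stimulated rats. The 2 caudal libraries of stimulated rats are the highest for the first 3 sums (184 and 192 FPKM for the Schwann cell genes, 111 and 185 for the fibroblast markers) and lie on both sides of the control rats for the last. Pmp22 made up most of the Schwann cell sum, at 138 of 184 and 142 of 192 FPKM.

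In the lesion the direction was the opposite. Prx was at 5.76 and 5.49 FPKM in the control rats and 3.98 and 3.80 in the stimulated rats (log2 -0.53, SE 0.15, adjusted p 1), and Dhh at 1.09 and 1.02 against 0.731 and 0.769 (log2 -0.49, SE 0.14, adjusted p 1). Both, with Pmp22 and Scn7a, lay lower in both stimulated rats, 4 of 8 genes where 7.69% of all genes did. In this block Dhh reached the 1 FPKM of the filter only in the control rats, so the filter could favour this direction for it. The closest values of Pmp22 were 80.1 FPKM in a control rat and 79.2 in a stimulated rat. Of 8 meningeal barrier cell markers, 7 also lay lower in both stimulated rats, with a median log2 difference of -0.53 and sums of 1011 to 1063 FPKM against 1203 to 1444. Of 10 fibroblast and nerve sheath markers tested, 4 did, with sums of 53.1 to 79.5 FPKM against 81.6 to 90.1. The part of these cells in the lesion difference was not tested. By limma 0 of the 8 genes were called in the lesion and 2, Prx and Dhh, had an unadjusted p under 0.05, against 2.24% of all genes. In the rostral block Pmp22, Pmp2, Cdh19 and Ncmap lay higher in both stimulated rats, where 5.14% of genes did, and 0 of the 8 were called (0 at an unadjusted p under 0.05, against 3.43% of all genes). The largest difference there was that of Ncmap, a log2 value of 1.17 (SE 0.50, adjusted p 0.956). In the same block all 5 skeletal muscle markers tested lay higher in both stimulated rats, with sums of 11.2 and 22.2 FPKM against 4.70 and 5.66, and their part in the difference was not tested.

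In white matter under the electrodes 3 genes, Pmp22, Pmp2 and Scn7a, lay higher in both stimulated rats, where 21.2% of genes did. Pmp22 had a log2 difference of 0.81 (SE 0.11, adjusted p 0.712) and was the only 1 of the 8 with an unadjusted p under 0.05 in limma (5.44% of all genes), with 0 called. On the opposite side Pmp22 alone lay higher in both stimulated rats (20.2% of genes), with a log2 difference of 0.68 (SE 0.27, adjusted p 0.949), and 0 of the 8 were called or had an unadjusted p under 0.05 (1.41% of all genes). Scn7a had wide errors in both blocks, with log2 differences of 1.71 (SE 0.88) and 1.77 (SE 1.48), for stimulated rat 2 alone was far above the other libraries.

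**Figure D4:**
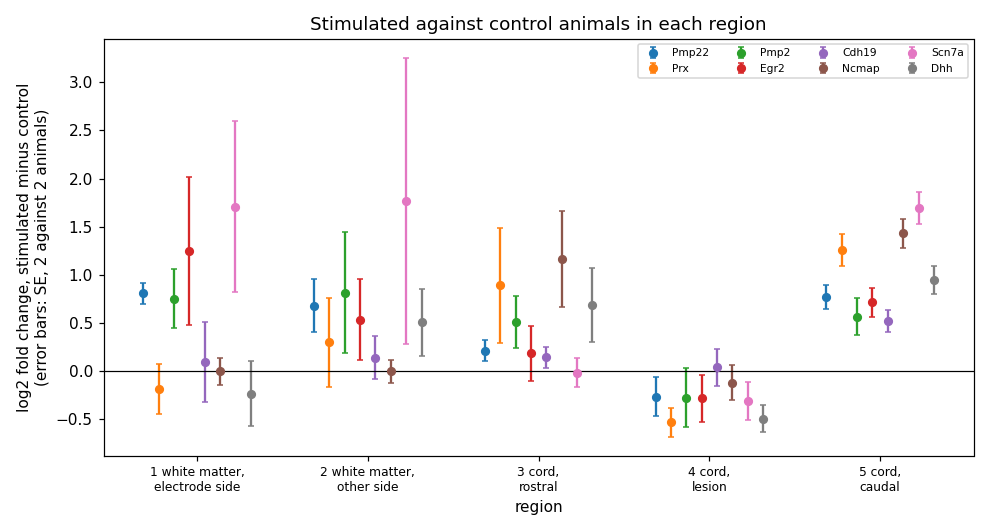
Log2 fold change of stimulated over control rats for each of the 8 genes in each of the 5 regions, with its SE from limma on the 4 libraries of the region. All 8 points lie above 0 in region 5 (0.52 to 1.70), 7 of the 8 lie below 0 in region 4, and no point passed the adjusted threshold.

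Because the direction differed between lesion and caudal block, the caudal minus lesion difference was also taken within each rat. For Prx the caudal level was 0.987 and 0.818 times the lesion level in the control rats and 3.24 and 2.99 times in the stimulated rats. For Scn7a the ratios were 0.686 and 0.429 in the control rats and 2.08 and 2.29 in the stimulated rats. Pmp2, Ncmap and Dhh behaved likewise. Dhh, though, had passed the filter of 1 FPKM only through control lesion and stimulated caudal libraries, so the filter favoured this pattern for it. For 5 of the 8 genes caudal thus lay below lesion in both control rats and above it in both stimulated rats, a pattern shown by 2.76% of all genes. The stimulated minus control values of this difference were 2.01 for Scn7a (SE 0.32, adjusted p 0.838), 1.79 for Prx (SE 0.25, adjusted p 0.656), 1.55 for Ncmap (SE 0.23, adjusted p 0.763), 1.44 for Dhh (SE 0.22, adjusted p 0.786) and 0.84 for Pmp2 (SE 0.32, adjusted p 1) on the log2 scale. None of the 8 genes was called in limma on these differences, where 0.00657% of all genes were, and 7 had an unadjusted p under 0.05, where 2.98% did. For the lesion minus rostral difference within each rat 0 genes were called and 1, Dhh, had an unadjusted p under 0.05, where 4.29% did. Its log2 value was lower in the stimulated rats by 1.18 (SE 0.35, adjusted p 0.920).

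Over the 20 libraries, which share rats and tissues, 7 of the genes varied together. Pearson correlations of log2 FPKM among them ran from 0.68 for Ncmap and Scn7a to 0.99 for Prx and Ncmap. Egr2 correlated negatively with all 7, from -0.37 with Scn7a to -0.76 with Cdh19. Among genes outside the 8 with a mean of at least 1 FPKM, the closest to the mean standardised level of the 8 was Plekha4 (r = 0.99), a gene also on the list of myelinating Schwann cell genes, followed by Kif7, Slc14a1, Crispld2 and Serinc4 (0.97 to 0.98). Ehd2, S100a10, Aldh2, Arhgef37 and Ahnak completed the nearest 10 (r = 0.97 each). Myoc was the nearest gene to both Prx (0.99) and Ncmap (0.99). The nearest to Egr2 were Junb, Dusp6 and Trib1 (0.95 to 0.96), of which Junb is an immediate early gene and Dusp6 a feedback inhibitor of ERK signalling. For Pmp22 the nearest was St3gal4, for Pmp2 Gsn, for Cdh19 Tspan18, for Scn7a Tsku and for Dhh Egfl8, with r from 0.94 to 0.99. These values carry no test, since the difference between cord and white matter runs through all of them.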

How the data were processed

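Total RNA was depleted of ribosomal RNA and sequenced as paired reads of 51 bp by the authors, who aligned them to the rat genome Rnor6 with TopHat 2.1.0 at default settings and estimated expression with Cufflinks 2.2.1. The authors deposited FPKM values per gene, with values under 0.1 raised to 0.1. Reads behind a value are not given in that unit, so depth per gene is unknown. The version of the annotation is not given in the sources used here. The library kit was stranded, but whether strand was used in the counting is not stated, and overlapping and antisense genes may not be told apart.

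Log2 FPKM was fitted with limma 3.58.1 in R 4.3.3 (eBayes with trend) on the 15210 of 30443 genes with at least 1 FPKM in any library, with Benjamini-Hochberg adjustment over all of them and a threshold of 0.05. All 8 members passed, Dhh through 4 libraries and Egr2 through 7. Regions were compared in 1 model of 20 libraries, stimulation in the 4 libraries of a region, and differences between effects on within-rat differences. Intervals are 95%. The fits were tested on simulated data. The other steps used Python 3.11.15, pandas 2.3.3 and numpy 2.4.6.

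The members and the 15 gene lists were chosen with earlier results of these data known, so no list adds independent support. From each list the text names the largest and smallest lesion difference and the highest mean, and says where it goes beyond this. A gene that this rule names is not reported here. Foxd3, Pou3f1, Lhfpl3, Myh4 and Dct of the lists were not in the table, and Crabp2, present 2 times, was taken at its highest mean. Replicates are separate rats. Cord and white matter blocks of 1 rat are not independent: deviations of the same rat from the region means correlated at 0.21 between regions 3 and 4, 0.12 between 3 and 5, 0.03 between 4 and 5 and 0.59 between 1 and 2, so fits with the rat as a block were run beside the main ones. Alternatives were log2(FPKM + 1), no filter, quantile or upper-quartile scaling, other sets of libraries and each rat left out.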

Additional observations from a re-analysis of the deposited data

Results flagged for a closer look

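In 6 of the 40 sets of 4 libraries of a gene in a region, 1 library stood apart from the other 3 by a gap beyond Dixon's 95% critical value. Chance meets that criterion in about 1 of 20 independent sets. These sets share rats and their genes vary together, and Pmp2 opposite to the electrodes was at the floor in 3 of 4 libraries. The count was therefore not tested against chance. In all 6 the library that stood apart was that of stimulated rat 2. It was the lowest of the lesion block for Pmp22 (58.0 FPKM) and Egr2 (0.402 FPKM). It was the highest in white matter opposite to the electrodes for Pmp2 (0.311 FPKM), Cdh19 (0.754 FPKM) and Scn7a (1.64 FPKM), and under the electrodes for Scn7a (7.30 FPKM).

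For 5 genes the caudal level lay below the lesion level in both control rats and above it in both stimulated rats. The stimulated minus control value of this log2 difference was 2.01 for Scn7a, 1.79 for Prx, 1.55 for Ncmap, 1.44 for Dhh and 0.84 for Pmp2. In limma on the within-rat differences none of them passed (adjusted p 0.656 to 1). Dhh, 1 of the 5, had passed the filter of 1 FPKM only through the libraries that are high in this pattern.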

How the results depend on the processing

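The floor of 0.1 understates changes, and also spread, of genes that reach it, which were Ncmap, Pmp2 and Scn7a of the 8, and FPKM gives no counting error. The calls in the cord moved most with which rats were used. Leaving out 1 rat gave 1 to 7 of the 8 genes (523 to 4909 of all genes) for lesion against rostral cord, 0 to 6 (54 to 1237) for caudal against rostral cord, 0 (5 to 1097) for lesion against caudal cord, and 0 to 4 (26 to 3674) for white matter under the electrodes against the opposite side. For stimulation it gave 0 genes of the 8 (0 to 228, 0, 8 to 140 and 0 to 147 of all genes in regions 1, 3, 4 and 5), 0 to 1 in region 2 (0 to 548), and 0 to 1 (0 to 287) for the caudal minus lesion difference between groups. A lone rat of a group was taken to vary like the others.

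Without a filter, 3 of the 8 genes were called for lesion against rostral cord and 2 for white matter, with 578 genes in all for lesion against caudal cord, 698 for white matter and 6, 1, 3 and 22 for stimulation in regions 1, 2, 3 and 5. With log2(FPKM + 1), 2 of the 8 were called for white matter, 1 (Cdh19) for lesion against caudal cord, and 0 genes in all for stimulation in region 5 and for the difference between groups. Quantile normalization called 4842, 470 and 1109 genes in all for lesion against rostral, lesion against caudal and caudal against rostral cord, and 0 for the difference between groups. Upper-quartile scaling called 4603, 627 and 1169, with 2247 for white matter and 0 for stimulation in region 5. The share of called genes that were higher went from 34.6% to 46% (upper quartile) for lesion against rostral cord, from 11.7% to 52.3% for lesion against caudal cord, from 64.2% to 35.8% for caudal against rostral cord, and from 79.6% to 52.9% (quantile) for white matter. The median of all genes moved from -0.14 to 0.02 for lesion against caudal cord and from 0.11 to -0.01 for caudal against rostral cord under upper-quartile scaling.

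With cord libraries only, 4787, 2462 and 2570 genes were called in all, and 1 of the 8 (Cdh19) for lesion against caudal cord. With a mean for each region and group, 522 genes and 1 of the 8 (Pmp22) were called there. For stimulation, 1 model of all 20 libraries called 1 gene in each of regions 1 to 4, 18 in region 5 and 0 for the difference between groups, and a fit without the variance trend called 1 in region 5. Chosen after seeing the data, the control rats alone gave 0 of the 8 and 0 genes in all for caudal against rostral cord and 201 for lesion against caudal cord. Without the caudal libraries of stimulated rats the first gave 0 of the 8 and 44 in all, and the second gave 7.

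The rat as a replicate block raised the genes called for lesion against caudal cord from 1216 to 1966, added Pmp22 for lesion against rostral cord and changed no other call of the 8. Control and stimulated rats share only a number, with correlations of same-numbered deviations from -0.21 to 0.32, so that number does not pair them. As a replicate block it called 5 of the 8 genes and 443 genes in all for stimulation in region 5, and 4 of the 8 and 402 in all for the caudal minus lesion difference.

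Lesion against caudal cord, which was not called, changed sign under several settings. In the control rats alone it was 0.15 for Prx, 0.29 for Pmp2, 0.25 for Ncmap, 0.88 for Scn7a and 0.44 for Dhh. Without the caudal libraries of stimulated rats it was 0.15 for Pmp2, 0.19 for Ncmap, 0.73 for Scn7a and 0.20 for Dhh. With upper-quartile scaling it was 0.026 for Pmp2 and 0.037 for Scn7a. Leaving out 1 rat gave -0.34 to 0.10 for Pmp2 and -0.57 to 0.24 for Scn7a, with the positive values without stimulated rat 2 (both genes) or stimulated rat 1 (0.19, Scn7a). In white matter, Prx was at -0.00 (-0.0026) with quantile normalization, and Dhh at -0.27 to 0.19 with 1 rat left out, positive without stimulated rat 2, and at 0.31 in the control rats alone. The causes were not tested.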
